A study of Mus musculus with 6 samples.

Results

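The transcripts described here are the subunits of the transcription factor NF-κB and a set of its feedback genes, measured in whole mouse kidney. They were chosen by symbol: the subunit genes Nfkb1, Nfkb2, Rel, Rela and Relb, and the inhibitor or regulator genes Nfkbia, Nfkbiz, Tnfaip3, Bcl3 and Birc3. All 10 symbols were found among the 17933 genes of the table. RNA came from kidneys of wild-type male C57BL/6 mice aged 6 to 8 weeks. In the stone group, with 3 samples, mice received glyoxylic acid at 120 mg/kg by daily intraperitoneal injection over 12 days, and in the control group, also with 3 samples, the same volume of saline. Glyoxylic acid is turned into oxalate in the body, and the injections serve to form calcium oxalate crystals in the kidney, so that the model is one of chemical overload. The question was how the transcripts of this pathway differed between stone and control kidneys. Values are FPKM, fragments normalized for gene length and library total, so levels can be set side by side between genes.

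NF-κB is a family of dimeric transcription factors that resting cells hold in the cytoplasm bound to inhibitors of the IκB family. Signals from receptors for TNF, interleukin 1 and microbial products activate the IκB kinase, the inhibitor is destroyed, and dimers containing RelA enter the nucleus, which is called the canonical route. A slower, non-canonical route works through the kinase NIK, encoded by Map3k14, and processes the product of Nfkb2 to release dimers with RelB. Several inhibitors and subunits are themselves targets of NF-κB, so that the pathway limits itself. In the kidney, tubule cells and macrophages both use it during inflammation.

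Promoter sequences of the members are shown because feedback of this kind acts through the κB motif, the sequence that NF-κB dimers bind. RefSeq windows of 300 bases on build GRCm38.p6, from 250 bases before to 50 after a transcription start, were at hand for 7 members. Nfkb1, Relb and Nfkbiz had no entry. The κB motif, searched on both strands, was present in 5 of the 7, namely Nfkb2, Rel, Nfkbia, Tnfaip3 and Bcl3, and in 8.46% of all 32851 windows. Counted by gene, it was present for 12% of the 14146 genes of the FPKM table that had a window. No match was found in the windows of Rela and Birc3. A match describes these letters and does not show binding. Below, capitals mark the κB matches, overlapping matches are joined, and each sequence is read along its gene from 5′ to 3′. The stretches of Nfkbia, Tnfaip3 and Rel are the 150 bases before a RefSeq start. The short stretches of Nfkb2 and Bcl3 show the sites alone.
Nfkbia, chr12:55492648-55492797, minus strand: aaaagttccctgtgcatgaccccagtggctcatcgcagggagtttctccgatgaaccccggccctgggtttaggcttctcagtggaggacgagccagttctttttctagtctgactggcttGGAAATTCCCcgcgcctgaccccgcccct
Tnfaip3, chr10:19015411-19015560, minus strand: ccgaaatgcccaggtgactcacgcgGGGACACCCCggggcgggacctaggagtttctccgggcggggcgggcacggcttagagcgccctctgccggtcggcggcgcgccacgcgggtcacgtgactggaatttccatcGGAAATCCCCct
Rel, chr11:23770970-23771119, minus strand: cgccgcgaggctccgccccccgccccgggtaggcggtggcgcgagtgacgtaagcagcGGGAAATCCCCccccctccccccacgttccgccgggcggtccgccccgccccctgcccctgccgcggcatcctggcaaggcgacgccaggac
Nfkb2, chr19:46304689-46304717, plus strand: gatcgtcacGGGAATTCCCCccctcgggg
Nfkb2, chr19:46304717-46304744, plus strand: gggccgaaaGGGGCTTTCCcggctggag
Bcl3, chr7:19822735-19822762, minus strand: cggcggcagGGGAAGTCCCgctgcccgg
The single match of Nfkbia began 29 bases before the start. In one of the Tnfaip3 windows, matches began 125 and 12 bases before its start, and in Rel a joined pair began 92 bases before the start. The other Tnfaip3 window held no match, and the GENCODE span of Tnfaip3 starts further upstream, so that the printed stretch lies within it. In Nfkb2 the matches shown began 39 and 11 bases before the start of one of 3 windows, and the other windows held further matches. Annotated Nfkb2 transcript starts further upstream and covers at least part of the 150 bases before the start of that first window's transcript. Whether it covers the sites shown was not checked. In Bcl3 the match began at base 3 from the start of its window's transcript.

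Libraries were compared before the members were read. FPKM sums were 711768 to 758514 in control and 609705 to 613885 in stone samples. Pearson's r across genes on log2(FPKM + 1) was 0.988 to 0.995 within groups and 0.962 to 0.974 between them. Kap, an androgen-regulated transcript of the proximal tubule, took 19.3% to 23.2% of the FPKM sum in control and 1.18% to 2.26% in stone samples. Tubule markers were present in both groups, with means in control and stone kidneys of 1670 and 1299 FPKM for Umod, 2617 and 1661 FPKM for Slc34a1 and 145.4 and 113.5 FPKM for Lrp2. Genes averaging 1 FPKM or more, 12319 in all, were tested on log2(FPKM + 1) with limma and Benjamini-Hochberg adjustment. At an adjusted p under 0.05, 57.4% were called, 43.5% as higher and 13.9% as lower in stone kidneys. Over the tested genes, log2 fold changes had a median of 0.21. That median moved by -0.22 with median-of-ratios scaling, by -0.24 with quantile normalization and by 0.24 with equal FPKM sums, so differences of this size have no settled direction.

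Every member was more abundant in stone kidneys. Of the 10, 9 reached the level for testing, and all 9 were called higher against 43.5% of all tested genes (limma, adjusted p from 7.8e-05 to 0.00618). After median-of-ratios scaling all 9 were still called higher, against 22.5% of tested genes, and equal FPKM sums or quantile normalization left all 9 called as well. Their median log2 fold change was 1.41, beside 0.21 over all tested genes. For each of the 10, the lowest stone value was at least 1.5 times the highest control value, a margin that 15.6% of all 17933 genes showed. Stone values lay above control values without overlap for 49.8% of tested genes. The summed FPKM of the 10 was 57.7 to 73.8 in control and 150 to 176 in stone samples. In whole kidney, more cells of a type and more RNA per cell cannot be told apart.

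**Figure D1:**
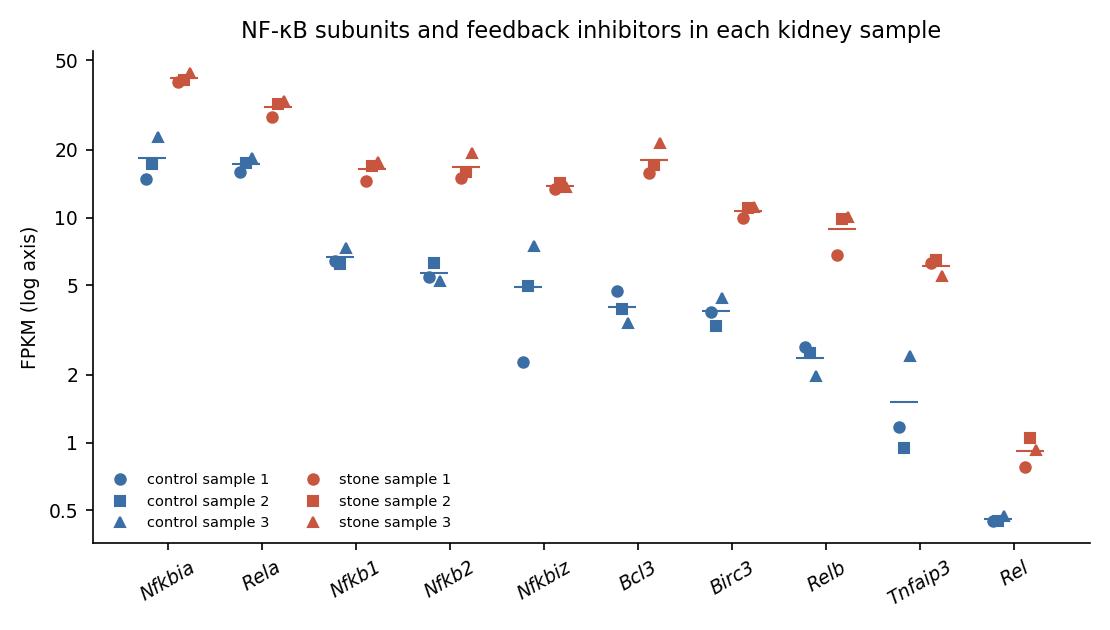
FPKM of the 10 genes (log axis) in each sample, with control samples in blue and stone samples in red, ordered by control mean; horizontal lines are group means. For every gene the 3 stone points lie above the 3 control points, and Nfkbiz and Tnfaip3 have the widest spread among the controls.

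Rela encodes p65, the subunit with the main activation domain of the canonical route. In order of sample number, its controls were at 15.91, 17.51 and 18.29 FPKM and its stone samples at 28.01, 31.82 and 33.08 FPKM, and values below follow this order. It was the most abundant subunit in both groups and rose the least of the tested members. Limma gave Rela a log2 fold change of 0.81 (SE 0.085) and an adjusted p of 0.000329, and the group means differed 1.80 times. The gene lies on chromosome 19 from 5637483 to 5648130 on the plus strand (GENCODE M21, build GRCm38).

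Nfkb1 encodes p105, the precursor of the p50 subunit that pairs with p65. Its values were 6.42, 6.22 and 7.33 FPKM in control and 14.6, 16.92 and 17.58 FPKM in stone samples. The groups stood well apart, and the spread within each was small. For Nfkb1 the limma estimate was 1.18 on the log2 scale (SE 0.094), and the adjusted p was 0.000111. Nfkb1 lies on the minus strand of chromosome 3, from 135584655 to 135691547.

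Nfkb2 encodes p100, which is both an IκB-like inhibitor and the precursor of p52 in the non-canonical route. It was at 5.46, 6.31 and 5.23 FPKM in control and at 14.91, 16 and 19.26 FPKM in stone samples, with stone sample 3 the highest. Its log2 difference by limma was 1.41 (SE 0.11), at an adjusted p of 0.000105. Nfkb2 lies on chromosome 19 from 46304320 to 46312385 on the plus strand. Its 3′ neighbour Psd overlaps it on the other strand, and since the strand setting of the counting was not given in sources at hand, reads of the overlap cannot be assigned with certainty.

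Relb encodes the partner of p52. It measured 2.65, 2.49 and 1.98 FPKM in control and 6.82, 9.84 and 10.04 FPKM in stone samples. Stone sample 1 was the lowest of its group, but lay far above every control. Of the subunits Relb had the largest change, 1.54 on the log2 scale (SE 0.154, limma adjusted p of 0.000275), and the group means differed 3.75 times. It lies on the minus strand of chromosome 7, from 19606217 to 19629438.

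Rel encodes c-Rel, a subunit best known from lymphocytes and other immune cells. It was low throughout, at 0.45, 0.45 and 0.47 FPKM in control and 0.78, 1.05 and 0.93 FPKM in stone samples, and its mean was under the level for testing. The groups did not overlap, as was so with stone above control for 40.5% of all genes in the table. With genes of at least 0.1 FPKM admitted, it was called higher, with a log2 fold change of 0.40 (limma, adjusted p = 0.00787), against 39.3% of the genes tested that way. At this level the added 1 FPKM compresses the log2 value, and the group means differed 2.01 times. Rel lies on the minus strand of chromosome 11, from 23736847 to 23770970.

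Rela made up a smaller part of the summed subunit transcripts in every stone sample than in any control. As a percentage of the summed FPKM of the 5 subunits, which does not move with sample scaling, Rela was 51.5, 53.1 and 54.9 in control and 43.0, 42.1 and 40.9 in stone samples. Relb was 8.58, 7.55 and 5.95 in control and 10.5, 13.0 and 12.4 in stone samples. Nfkb2 was 17.7, 19.1 and 15.7 in control and 22.9, 21.2 and 23.8 in stone samples. For these 3 genes the groups did not overlap. The shares of Nfkb1, at 20.6% ± 1.59 and 22.2% ± 0.383 (SD, n = 3 each), and of Rel, at 1.41% ± 0.046 and 1.245% ± 0.126, overlapped between groups. An exact two-sided permutation test of each share gave p = 0.1 for Rela, Relb and Nfkb2, the smallest that 3 against 3 samples allow, and 0.167 after adjustment over the 5 shares, so none passed. The sum itself was 32.4 ± 1.31 FPKM in control and 73.9 ± 8.03 FPKM in stone samples. Transcript shares do not give protein shares.

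Ratios of 2 genes within a sample were taken as well, and those between subunits restate the shares above. The ratio of Relb to Rela was 0.167, 0.142 and 0.108 in control and 0.243, 0.309 and 0.304 in stone samples, a log2 difference of 1.05. Transcript of the non-canonical partner was thus higher relative to that of p65 in each stone sample. The ratio of Nfkb2 to Nfkb1, the genes of the precursors, was 0.859 ± 0.151 in control and 1.02 ± 0.075 in stone samples, and the groups overlapped. The ratio of Rel to Rela was 0.0266 ± 0.00149 and 0.0297 ± 0.0029 and overlapped too. Of 8 ratios compared, 5 did not overlap, each with an exact permutation p of 0.1 and 0.16 after adjustment over the 8, so none passed. How often ratios or shares of other genes would not overlap was not counted, so the 5 have no background to be set against.

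**Figure D2:**
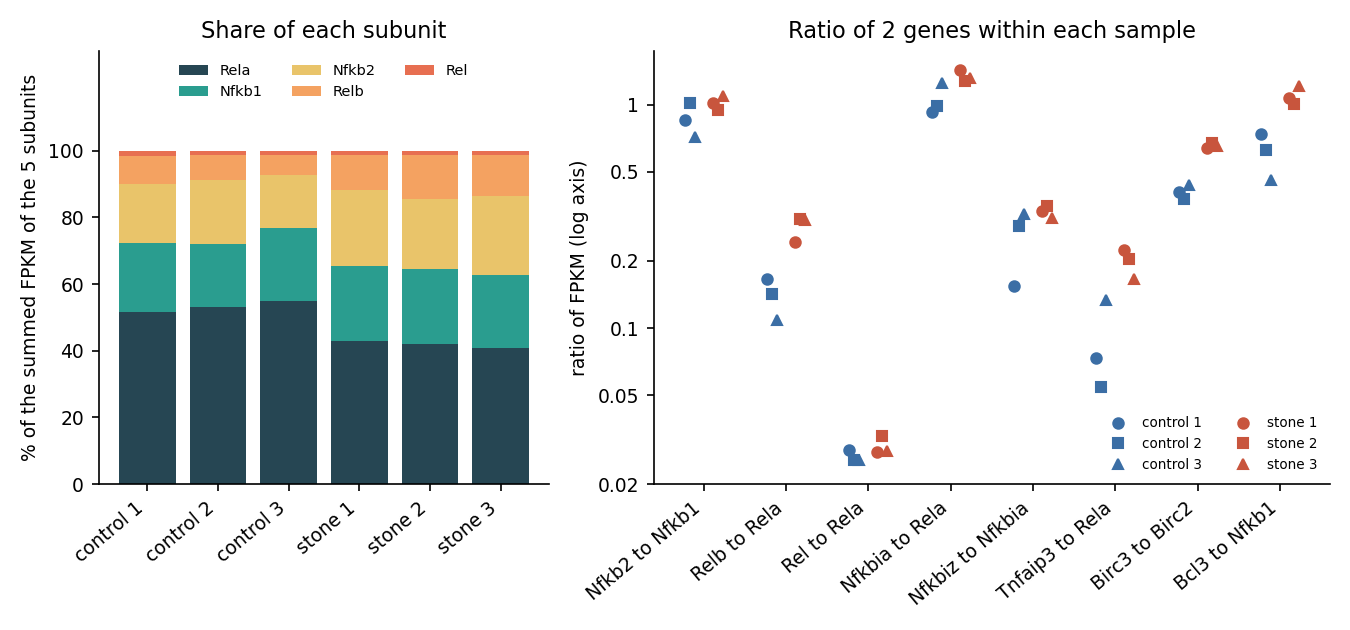
Left, percentage of the summed FPKM of the 5 subunits in each sample; right, ratio of FPKM of 2 genes (log axis) in each sample, control in blue and stone in red. Rela takes a smaller share in each stone sample than in any control, and 5 of the 8 ratios are higher in every stone sample than in every control.

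The feedback inhibitor Nfkbia encodes IκBα, which binds dimers with p65 and takes them out of the nucleus. It measured 14.8, 17.34 and 22.85 FPKM in control and 40, 40.75 and 43.79 FPKM in stone samples. It was the most abundant member in both groups, though its range overlapped that of Rela in the controls and not in the stone samples. Limma put the log2 fold change of Nfkbia at 1.16 (SE 0.142) and the adjusted p at 0.00063. The ratio of Nfkbia to Rela was 1.06 ± 0.17 in control and 1.34 ± 0.0758 in stone samples, and the highest control ratio lay just under the lowest stone ratio. Nfkbia lies on the minus strand of chromosome 12, from 55489410 to 55492647.

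Nfkbiz encodes IκBζ, a nuclear protein of the IκB family that helps to switch on a set of secondary inflammatory genes. It was at 2.29, 4.97 and 7.44 FPKM in control and at 13.41, 14.28 and 13.64 FPKM in stone samples. The controls differed 3.25 times among themselves, a wider spread than in 99% of 12278 tested genes, while the stone samples were nearly level. Its log2 fold change of 1.43 had an SE of 0.302, the widest among the members, and a limma adjusted p of 0.00618. Its ratio to Nfkbia was 0.256 ± 0.0895 and 0.332 ± 0.0196 and overlapped between groups. Nfkbiz lies on the minus strand of chromosome 16, from 55811375 to 55838899.

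Tnfaip3 encodes A20, an enzyme that edits ubiquitin chains and damps signals from the TNF and Toll-like receptors. Its values were 1.17, 0.95 and 2.43 FPKM in control and 6.25, 6.47 and 5.5 FPKM in stone samples. Control sample 3 stood above the other controls, and still below every stone sample. Tnfaip3 rose by 1.53 log2 units (SE 0.207, limma adjusted p of 0.000934), and the group means differed 4.00 times. The ratio of Tnfaip3 to Rela was 0.0869 ± 0.041 in control and 0.198 ± 0.0289 in stone samples, without overlap. Tnfaip3 lies on the minus strand of chromosome 10, from 19000910 to 19015657.

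Control samples differed in the immediate-early genes, a class that cells switch on within minutes of a stimulus, and this is given beside Nfkbiz and Tnfaip3. In a list of 10 such genes, picked after the values were seen, all 10 had their lowest control value in sample 1 and their highest in sample 3. Fos was at 0.92, 33.4 and 68.91 FPKM in control and 15.13, 17.11 and 25.78 FPKM in stone samples, and Egr1 at 3.02, 42.89 and 136.23 against 27.99, 39.76 and 41.25 FPKM. The list summed to 81.5, 467 and 934 FPKM in the controls and to 371, 408 and 499 FPKM in the stone samples, and 0 of the 10 were called in either direction. Nfkbia, Nfkbiz and Rela had the same control order, and Tnfaip3, Nfkb1, Rel and Birc3 also had their highest control value in sample 3. Relb and Bcl3 had the reverse control order, and Nfkb2 had its lowest control value in sample 3. How often these orders occur over all tested genes was not counted. The part of this difference among controls in the results was not tested. Without control sample 1 the log2 fold change of Nfkbiz was 1.06 (limma, adjusted p = 0.00332), and without control sample 3 it was 1.74 (adjusted p = 0.00244).

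**Figure D3:**
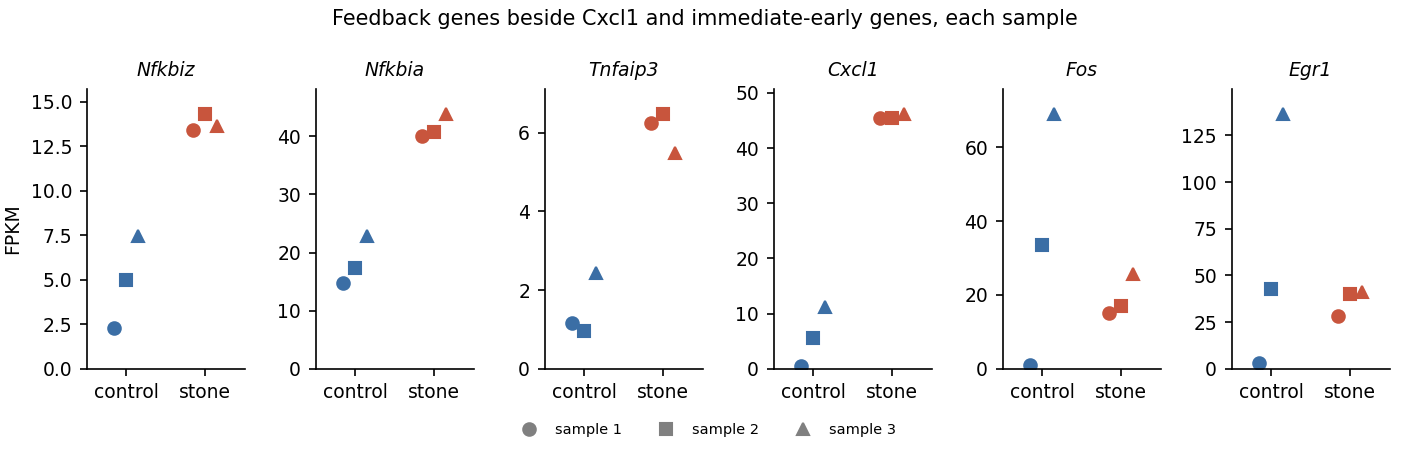
FPKM of 3 feedback genes, the chemokine gene Cxcl1 and the immediate-early genes Fos and Egr1 in each control (blue) and stone (red) sample; each panel has its own axis from 0. Control sample 3 is the highest control in all 6 panels, and the 3 feedback genes are higher in every stone sample while Fos and Egr1 overlap. The panels are a selection, and Bcl3, not shown, had its lowest control value in sample 3.

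Bcl3 encodes a nuclear IκB-like protein that joins p50 or p52 dimers at DNA and can raise or lower transcription. It had the largest rise of the tested members, from 4.74, 3.92 and 3.39 FPKM in control to 15.71, 17.06 and 21.35 FPKM in stone samples. All stone values were at least 3.31 times the highest control. The limma estimate for Bcl3 was 1.92 log2 units (SE 0.139), with an adjusted p of 7.8e-05, at percentile 98.7 of all tested genes. The ratio of Bcl3 to Nfkb1 was 0.738, 0.630 and 0.462 in control and 1.08, 1.01 and 1.21 in stone samples, without overlap. Bcl3 lies on the minus strand of chromosome 7, from 19808462 to 19822770, and 2 annotated antisense RNAs overlap it.

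Birc3 encodes cIAP2, a ubiquitin ligase of TNF receptor complexes that also helps to degrade NIK. It measured 3.8, 3.31 and 4.39 FPKM in control and 9.99, 11 and 11.12 FPKM in stone samples. The controls differed 1.33 times among themselves, a wider spread than in 75.7% of 12278 tested genes, and the stone samples 1.11 times. By limma Birc3 rose by 1.28 log2 units (SE 0.101), and the adjusted p was 0.000105. Its neighbour and paralog Birc2, which encodes cIAP1, rose as well, from 9.39 ± 0.656 to 16.3 ± 0.721 FPKM. The ratio of Birc3 to Birc2 was 0.406, 0.378 and 0.436 in control and 0.642, 0.674 and 0.655 in stone samples, the ratio with the least spread within groups of the 5 that did not overlap. Birc3 lies on chromosome 9 from 7848699 to 7873186 and Birc2 from 7818227 to 7837064, both on the minus strand. Reads shared by these paralogs could have been split by the counting.

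The order of levels differed between the groups. In control kidneys it was Nfkbia, Rela, Nfkb1, Nfkb2, Nfkbiz, Bcl3, Birc3, Relb, Tnfaip3 and Rel, from 18.3 down to 0.457 FPKM on average. Neighbours whose ranges overlapped were Nfkbia and Rela, the run from Nfkb1 to Birc3, and Relb and Tnfaip3. In stone kidneys Bcl3 came next after Nfkbia and Rela, at 18.04 FPKM, ahead of Nfkb2 and Nfkb1, and these 3 overlapped in neighbouring pairs, as did Birc3 and Relb. In the deposited values, stone sample 1 had the lowest stone value for 9 of the 10 members, the exception being Tnfaip3, and stone sample 3 had the highest for 7. Among the stone samples, the factor of median-of-ratios scaling was also lowest in sample 1, at 1.054, and highest in sample 3, at 1.131. The share of all tested genes with these orders was not counted, so the counts are not set apart from a difference in sample scale.

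**Figure D4:**
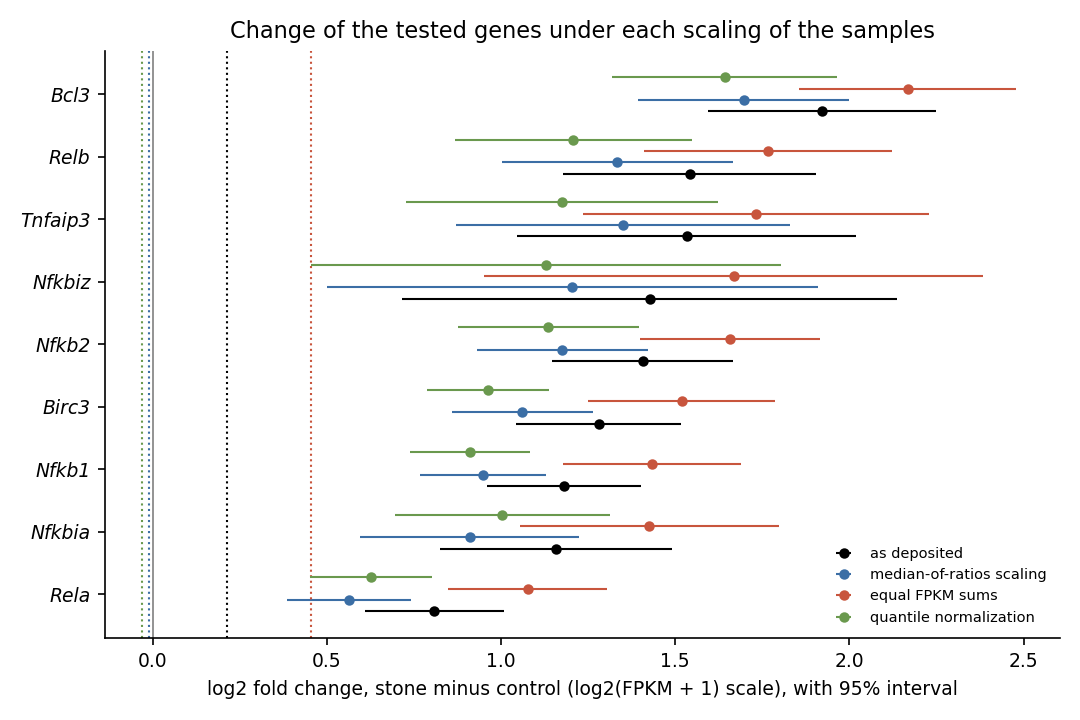
Log2 fold change, stone minus control, of the 9 tested members with 95% intervals under each way of scaling the samples; dotted lines are the medians of all tested genes in matching colours. All intervals lie above 0 under each scaling, and Rela has the smallest and Bcl3 the largest change.

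Marker lists of several cell types differed between the groups, some upward with the members and some not. Beside the counts that follow, 43.5% of all tested genes were called higher and 13.9% lower. Of 5 proximal tubule markers 4 were called lower and 0 higher (limma), and of 6 markers of other nephron segments 2 were called higher and 1 lower. After median-of-ratios scaling 0 of these 6 were higher and 2 lower, against 22.5% and 26.2% of all tested genes. The proximal tubule list, mostly Kap, summed to 147956 to 178955 FPKM in control and 9795 to 15748 FPKM in stone samples, and the other nephron list to 2036 to 2418 and 1405 to 2248 FPKM. Of 11 macrophage and monocyte markers 10 were called higher (limma), and their summed level was 70.4 to 77.7 FPKM in control and 210 to 531 FPKM in stone samples. The lowest stone sum was that of sample 1, as for all other lists given here except the neutrophil and the T and NK cell lists. In the deposited values sample 1 was also the lowest stone sample for most members, and its factor of median-of-ratios scaling was the lowest of the stone samples. The highest macrophage and monocyte sum was in stone sample 2, as for the fibroblast and mural, proximal tubule and other nephron lists. The injured tubule, endothelial, and B and plasma cell sums were highest in stone sample 3, as were most members in the deposited values. The neutrophil and the T and NK cell sums were highest in stone sample 1. All 7 markers of injured tubule were called higher, and summed to 94.8 to 99.8 FPKM in control and 723 to 1578 FPKM in stone samples. Most of each stone sum was Lcn2, at 410.11, 446.5 and 1099.08 FPKM. Lcn2 and Vcam1 are also on the list of known NF-κB targets used below. Of 7 neutrophil markers 3 were tested and all 3 were called higher, with list sums of 2.04 to 5.08 FPKM in control and 19.1 to 28.1 FPKM in stone samples. Of the untested ones, Cxcr2 was at 0, 0.03 and 0 FPKM in control and 0.25, 0.49 and 0.31 FPKM in stone samples. Mpo, Ly6g and Elane were near 0 in both groups. In stone samples Mpo was at 0, 0.03 and 0 FPKM and Ly6g at 0, 0 and 0.1 FPKM, and both were listed at 0 in every control. The 7 T and NK cell markers in the table were all under the level for testing, and summed to 2.14 to 3.08 FPKM in control and 1.44 to 1.72 FPKM in stone samples. Endothelial markers were called higher in 4 of 6, with sums of 51.7 to 90.6 and 88.1 to 142 FPKM, and fibroblast and mural markers in 6 of 6, with sums of 30.5 to 39.7 and 88.4 to 148 FPKM. Of 6 B and plasma cell markers 1 was tested and 0 were called, and their sums were 3.25 to 6 FPKM in control and 2.65 to 3.99 FPKM in stone samples. The part of these cells in the change of the members was not tested.

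Upstream of the members, 7 of 8 tested receptors rose and 0 fell, against 43.5% called higher and 13.9% lower over all tested genes. After median-of-ratios scaling 6 rose, against 22.5% of all tested genes. The median log2 fold change of the receptors was 1.13. Tnfrsf12a, the receptor of the non-canonical activator TWEAK, rose from 19.15, 25.36 and 19.06 FPKM in control to 143.64, 134.3 and 139.9 FPKM in stone samples (limma, adjusted p = 1.42e-05). Tlr2, a receptor of microbial lipoproteins and of damage signals, rose from 0.767 ± 0.11 to 5.76 ± 1.19 FPKM, and Tnfrsf1a, the main TNF receptor, from 24.7 ± 1.96 to 58.9 ± 6.23 FPKM. Of 10 ligands only 3 were tested and 2 rose, Tnfsf12, which encodes TWEAK, from 11.5 ± 1.33 to 20.7 ± 0.899 FPKM, and the B cell factor gene Tnfsf13b from 0.793 ± 0.216 to 3.17 ± 0.972 FPKM. Il1b, chosen after its values were seen, was at 1.31, 5.46 and 7.32 FPKM in control and 3.28, 5.86 and 3.99 FPKM in stone samples and missed the threshold in limma, with an adjusted p of 0.894. Tnf itself lay under the level for testing, with 0.26, 0 and 0.11 FPKM in control and 0.16, 0.74 and 0.47 FPKM in stone samples.

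The adaptors, ubiquitin ligases and kinases between receptor and NF-κB had a median log2 fold change of 0.31. As deposited, 16 of 26 tested rose and 1 fell, against 43.5% and 13.9% of all tested genes. Rescaled by median of ratios the counts were 11 and 5, against 22.5% and 26.2%. With quantile normalization they were 8 and 5, against 2744 and 3138 of all 12319 tested genes. Birc2, Tab2, which links ubiquitin chains to the kinase TAK1, and Traf3, which holds NIK in check, had the smallest p among the genes of this list called higher, at log2 fold changes of 0.74, 0.72 and 0.66. Chuk, the gene of the kinase IKKα, fell from 66.24, 69.27 and 69.93 FPKM in control to 48.45, 48.2 and 42.57 FPKM in stone samples (limma, adjusted p = 0.000658), and was called lower under each scaling. The other core kinase genes were chosen after their values were seen. Ikbkb, for IKKβ, was at 19.7 and 25.8 FPKM on average and was called higher as deposited (limma, adjusted p = 0.00667) but not after median-of-ratios scaling (0.177). Ikbkg, for the scaffold NEMO, averaged 6.34 and 7.08 FPKM and missed the threshold (adjusted p of 0.148 in limma), though it was called higher with equal FPKM sums (0.00568). Map3k14, for NIK, rose from 2.77 to 4.49 FPKM (limma, adjusted p = 0.0082), a call lost with quantile normalization (0.194).

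Of 18 tested inhibitors outside the member list, 11 rose and 2 fell as deposited, against 43.5% and 13.9% of all tested genes. Their median log2 fold change was 0.30, beside 0.21 over all tested genes. Rescaled by median of ratios, 7 were higher and 6 lower, against 22.5% and 26.2% of all tested genes. Nfkbie, the gene of IκBε, rose from 1.78 ± 0.256 to 4.29 ± 0.302 FPKM (limma, adjusted p = 0.000451). Tnip1, a partner of A20, rose by 0.64 and Otud7b, a deubiquitinase, by 0.68 on the log2 scale. Rnf11 and Tax1bp1, which encode parts of the A20 complex, fell by 0.41 and 0.25. With equal FPKM sums both calls were lost, with Rnf11 at -0.14 (limma, adjusted p = 0.0947) and Tax1bp1 at 0.026 (adjusted p = 0.666).

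Among known targets of NF-κB, 18 of 22 tested rose and 1 fell, against 43.5% and 13.9% of all tested genes, and the median log2 fold change was 1.64. After median-of-ratios scaling 15 were higher and 1 lower, against 22.5% and 26.2% of all tested genes. Csf1, which sustains macrophages, rose from 2.43, 1.79 and 2.79 FPKM to 31.84, 29.8 and 32.58 FPKM. The chemokine gene Ccl2 rose from 0.66, 0.82 and 0.55 FPKM to 12.81, 19.06 and 15.8 FPKM. Icam1, an adhesion molecule gene, rose from 8.83, 7.54 and 9.33 FPKM to 34.82, 33.31 and 34.82 FPKM. All 3 were several times higher in every stone sample than in any control. Against them, Sod2, the gene of the mitochondrial superoxide dismutase, fell from 113 ± 7.16 to 71.2 ± 2.50 FPKM (limma, adjusted p = 0.000275) and stayed lower under each scaling. Many of these genes answer to other factors as well, and the list was drawn up with earlier results of these samples known.

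**Figure D5:**
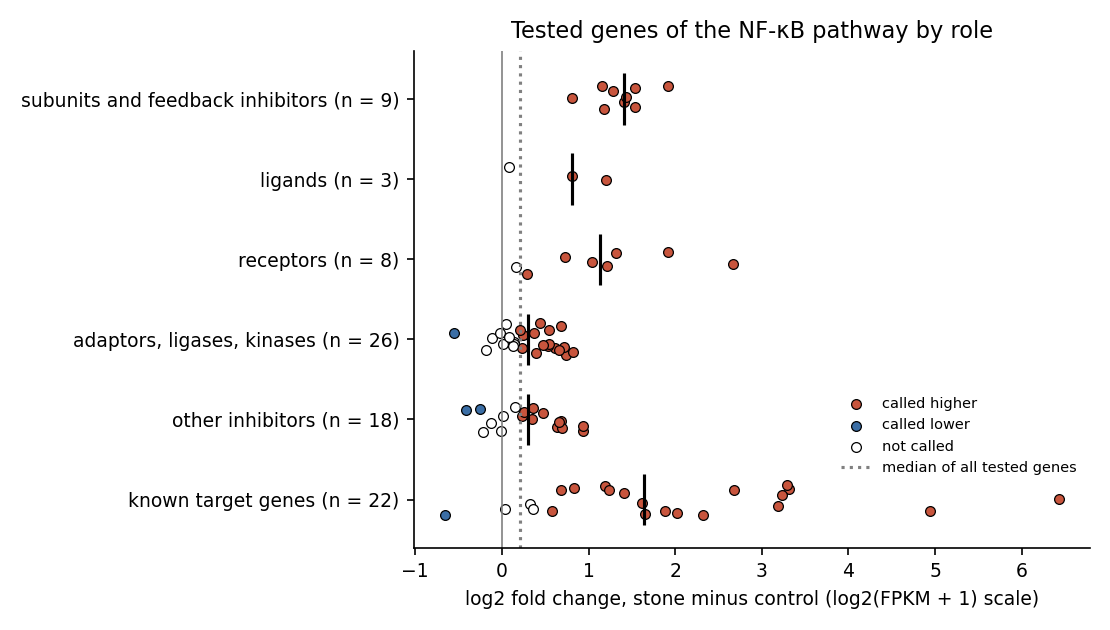
Log2 fold change of each tested gene by role in the pathway, coloured by its call; black bars are the medians of the lists and the dotted line is the median of all tested genes. The members, receptors and targets lie mostly to the right of that line, and the adaptors, kinases and other inhibitors lie around it.

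Genes with the most similar pattern were taken as those with the highest Pearson r on log2(FPKM + 1) over the 6 samples, given as a description since both groups enter it. The nearest gene to Nfkbiz was Cxcl1, at r = 0.999, with 0.51, 5.6 and 11.17 FPKM in control and 45.39, 45.46 and 46.1 FPKM in stone samples. Only 257 genes reached r = 0.95 with Nfkbiz, against 1658 to 2650 for the other tested members. The nearest genes were Unc13b for Nfkb1, Cnih4 for Nfkb2, Man2c1 for Rela, Capzb for Relb, Vgll4 for Nfkbia, Dxo for Tnfaip3, Akt1 for Bcl3 and Adamtsl4 for Birc3, each with r of 0.998 or more. Such values were common because the groups differed, and the changes of these 8 genes ranged from 0.10 for Dxo to 1.57 for Adamtsl4. Only deposited values entered r. The changes of Dxo and of Man2c1, at 0.15, were smaller in size than the shift of -0.22 made by median-of-ratios scaling. The direction of change of these genes is therefore not settled.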

How the data were processed

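RNA of 6 whole kidney samples was extracted with TRIzol and made into dUTP libraries for DNA nanoball sequencing, per the labels' protocols. Reads were aligned with HISAT2 2.0.4 to GRCm38.p6, per the submitters' processing notes. Quantifier, annotation and strand setting were not given in the sources used here. Expression values, as FPKM, were computed and deposited by the authors, with 1 column per sample and no pooling. FPKM hold no counts, so absolute depth is unknown and no counting interval is given. In 53 genes whose lowest values could stand for a single fragment, that value lay within -0.03 and 0.05 log2 units between samples, a measure that its selection keeps small.

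Values were transformed to log2(FPKM + 1), so fold changes of low genes are understated. Those genes that averaged 1 FPKM or more were tested with limma 3.58.1 in R 4.3.3 (lmFit, eBayes with a trend), two-sided, over all 12319 genes, with no covariate. Errors are SD or SE with 3 samples per group. The labels do not say that each sample came from a separate mouse, so p-values reflect only variation among the 6 samples, and this could be technical. Scripts were checked on simulated data. Alternatives were other scalings, pseudocounts and filters, array weights, no trend, a replicate block and leaving out each sample. The members and gene lists were chosen with earlier results of these data known. All members are named, and of each pathway list up to 3 called genes per direction with the smallest p, and for each tested member the gene with the highest Pearson r over the samples. Subunit shares, and the alternative that joins the lower filter with median-of-ratios scaling, were added after the data were seen. Promoters are from RefSeq and gene positions from GENCODE M21.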

Additional observations from a re-analysis of the deposited data

How the results depend on the processing

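Each tested member was called higher under all 17 alternatives, with limma adjusted p of at most 0.0217, the largest being for Nfkbiz without stone sample 2. Members called numbered 9 throughout, or 10 where a lower filter or none admitted Rel, and 0 were lower. Over all genes, 5356 were higher and 1711 lower as deposited. Scaling moved this to 2776 and 3222 with median-of-ratios, 8440 and 797 with equal FPKM sums, 2744 and 3138 with quantile normalization, and 3182 and 3302 with median-of-ratios and the filter at 0.1 FPKM. Calls that were higher made up 75.8% as deposited and 46.3%, 91.4% and 46.7% with the first 3 of these. Of the pathway genes named by the rule, the Rnf11 call was lost (log2 fold change -0.14) and Tax1bp1 changed sign (0.026), both with equal FPKM sums. Ikbkb, Ikbkg and Map3k14, picked after their values were seen, also changed call under some scalings, as given with their values. With the replicate block 4861 genes were higher and 1517 lower, and all 9 members stayed called. Samples of equal number did not deviate together (r = 0.0075, -0.22 and -0.04 for numbers 1 to 3), so the numbers were not taken as pairs. The log2 difference of the ratio of Nfkbiz to Nfkbia was 0.45, and 0.12 without control sample 1. That of Nfkb2 to Nfkb1 was 0.26, and 0.13 without control sample 3. That of Rel to Rela was 0.16, and 0.077 without stone sample 2. The share of Nfkb1 differed by 1.62 percentage points, and by 0.777 without control sample 2. With 3 samples per group, exact tests of ratios and shares could not pass.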

Other observations

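Some inflammatory targets of NF-κB were too low to be tested at the filter used and are given as values. The neutrophil-attracting chemokine gene Cxcl5 was listed at 0 in all 3 control samples and at 0.65, 1.18 and 0.81 FPKM in stone samples. Il6, an acute-phase cytokine gene, was at 0, 0 and 0.09 FPKM in control and 0.24, 1.28 and 0.83 FPKM in stone samples. Ptgs2, the inducible cyclooxygenase gene, was at 0.15, 0.23 and 0.54 FPKM in control and 1.24, 1.48 and 1.96 FPKM in stone samples. Nos2, the inducible nitric oxide synthase gene, was at 0.18, 0.15 and 0.23 FPKM in control and 0.14, 0.15 and 0.17 FPKM in stone samples, with no separation. Nfkbid, the gene of a further nuclear IκB protein, was at 0.28, 0.51 and 0.55 FPKM in control and 1.27, 1.73 and 1.59 FPKM in stone samples.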
